A study of Mus musculus with 19 samples.

Results

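The comparison asked, for each gene, whether *Spehd* knockdown changed its expression by a different amount in common myeloid progenitors (CMPs) than in LSK cells. All 19 libraries of the series enter it, 9 from CMPs and 10 from LSK cells. LSK cells, called KLS in the labels, are lineage-negative Sca1+ cKit+ bone marrow cells and hold the stem cells and multipotent progenitors, while CMPs are taken from the lineage-negative Sca1- cKit+ cells one step further along the myeloid path. The labels give the strain as C57BL6; per the methods the donors were C57BL6J and the recipients sublethally irradiated C57BL/6-CD45.1 animals of the cKit-w41 genotype, a *Kit* mutant that takes up donor stem cells readily. The marrow had been reconstituted for 10 weeks from E-SLAM hematopoietic stem cells carrying a doxycycline-inducible shRNA with zsGreen, and the animals were then fed doxycycline for 6 days, so the *Renilla* controls share the recipients, the vector, the transplantation and the drug. Libraries were made from sorted zsGreen+ cells.

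The hairpins labelled 12928-10 and 12928-20, here sh10 and sh20, target the lncRNA *Spehd*. The hairpin 713 targets *Renilla* luciferase, which mouse cells lack. The CMP libraries number 3 for sh10, 2 for sh20 and 4 for the *Renilla* hairpin, and the LSK libraries 3, 3 and 4. Only cells that kept the vector and could be sorted as CMP or LSK after 6 days of induction are measured. No source says whether libraries of a group came from separate animals, so the p-values measure only the spread between these samples. No counted gene is named *Spehd*, so the knockdown itself is not analysed here.

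As CMPs form from LSK cells, stem cell genes are turned down and myeloid and erythroid programs are turned up. Committed progenitors divide more and are known to rely more on mitochondrial respiration than stem cells do. The interaction reported here is the mean effect of sh10 and sh20 against *Renilla* in CMPs minus the same effect in LSK cells, on the log2 scale. A negative value means that knockdown lowered the gene more, or raised it less, in CMPs.

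The guide strands are shown because the results below differ between the hairpins. An shRNA guide pairs with its target along its whole length, and can also act on other transcripts through its seed, the bases 2 to 8 given in capitals. Guides were read from the hairpin oligonucleotides of the study and are written 5′ to 3′ as DNA.
sh10 guide: tACAAAGTcagcttttcctctc
sh20 guide: tATGCTATgacaacccagggca
Renilla 713 guide: tAGATAAGcattataattccta
The 3 seeds differ from each other. The reverse complement of the sh10 seed, ACTTTGT, was found in an annotated 3′ UTR of 22.3% of the 12677 tested genes that have one, that of sh20, ATAGCAT, in 10.5%, and that of the *Renilla* guide, CTTATCT, in 10.6%.

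Between 3647318 and 5965155 counts fell on genes in each library (median 4918631). Genes with at least 1 count numbered 17174 to 18066 in the CMP sh20 libraries, 17587 to 17817 in the LSK sh20 libraries and 18552 to 20678 in the others. Log2 totals were 0.379 higher with *Spehd* shRNAs than with *Renilla* shRNA in CMPs and 0.215 higher in LSK cells, a difference of 0.164 (exact permutation test of hairpin labels within cell type, two-sided, p = 0.4). LSK sh10 replicate B stood apart, with 50.9% of its listed reads not uniquely aligned against 39.6% to 47.9% in the others, the lowest share on no feature at 26.4%, and a TMM scaling factor of 1.11 against 0.953 to 1.02. The stem cell marker list summed to 1900 to 3030 CPM (counts scaled to the same library total) in LSK libraries and to 1240 to 1830 CPM in CMP libraries, and *Ly6a*, which encodes Sca1, averaged 50.9 to 66.2 CPM and 3.04 to 5.7 CPM over the groups of each, in the direction of the sort. The myeloid progenitor list went the other way, at 1990 to 2310 CPM in CMPs and 2440 to 2800 CPM in LSK cells with *Renilla* shRNA, with *Mpo* at a mean of 355 and 524 CPM and *Elane* at 35.4 and 147 CPM. It was lowest in CMPs with sh20, at 1570 and 1930 CPM. The 2 CMP sh20 libraries were the lowest for the stem list, at 1240 and 1480 CPM, against 1630 to 1830 CPM with *Renilla* shRNA. The T and NK cell list summed to 338 to 598 CPM in CMPs with *Renilla* shRNA, 45.2 to 73.6 CPM with sh10, 257 to 298 CPM with sh20 and 60.3 to 177 CPM in LSK cells.

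Knockdown lowered 8 genes more in CMPs than in LSK cells and raised none more. These were *Chad*, *Ccm2l*, *Prrt1*, *Prx*, *P2ry2*, *Bambi*, *Aim2* and *Vldlr*. Their interactions lay between -4.88 and -1.90 on the log2 scale. Averaged over the hairpins, expression in CMPs fell for each, with effects between -5.01 and -1.63. The LSK effect lay between -0.44 and 0.87 and was not called, as was true of every gene tested. Of all 15066 genes, 41 were called higher and 323 lower with knockdown in CMPs, and 0 and 0 in LSK cells. For *Prx*, *P2ry2*, *Bambi* and *Aim2* the CMP level with sh10 was 1.03, 1.43, 0.883 and 0.89 of that with *Renilla* shRNA, so the fall was that with sh20. Of 15066 genes tested, 0.0531% were called lower and 0% higher at an adjusted p under 0.05 (edgeR quasi-likelihood test, Benjamini-Hochberg adjustment). At an unadjusted p under 0.05 there were 978 lower and 540 higher.

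The count of 8 differed between tests, filters and single libraries left out. DESeq2 called 72 lower and 25 higher, the 8 among them, limma voom called 0, and pooling the hairpins left *Ccm2l* alone. With no filter 123 were lower and 130 higher, the 8 among them, and with at least 10 counts required in every library, which none of the 8 has, 0 were called. Without LSK *Renilla* replicate A no gene was called and without replicate D *Chad* alone, whereas without CMP sh20 replicate C 243 were lower and 20 higher, and without CMP sh20 replicate B 28 were called. Without LSK sh10 replicate B the same 8 genes were called.

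**Figure D1:**
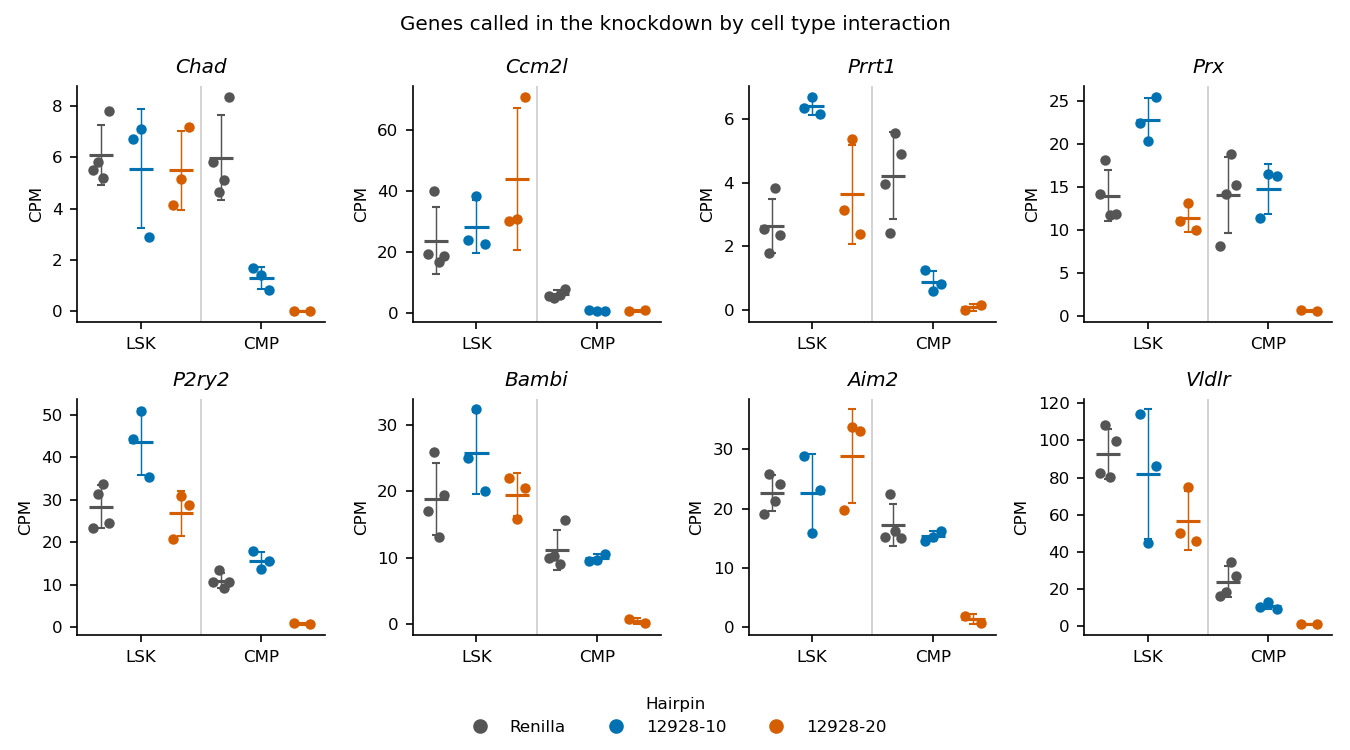
Expression in CPM (y axis, linear, a separate scale for each gene) of the 8 genes called in the interaction, by cell type (x axis, LSK on the left and CMP on the right of each panel) and hairpin (colour); each point is 1 library, horizontal lines are group means and bars are SDs. In CMPs the sh20 libraries lie between 0 and 1.86 CPM for every gene, and the sh10 libraries are below every *Renilla* library for *Chad*, *Ccm2l*, *Prrt1* and *Vldlr*.

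*Ccm2l* encodes a homolog of the CCM2 scaffold protein and is best known from endothelium. Its gene (ENSMUSG00000027474.12) lies on the plus strand of chromosome 2 of GRCm38, from 153065955 to 153081735. In CMPs it measured 5.53, 4.87, 5.80 and 7.85 CPM with *Renilla* shRNA, 0.841, 0.402 and 0.627 CPM with sh10 and 0.508 and 0.878 CPM with sh20. In LSK cells it measured 19.2, 39.97, 16.6 and 18.6 CPM with *Renilla* shRNA, 23.8, 38.3 and 22.6 CPM with sh10 and 30.2, 30.8 and 70.9 CPM with sh20. All 5 knockdown CMP libraries were below all 4 controls, and in LSK cells the groups overlapped. The effect was -3.15 in CMPs and 0.57 in LSK cells, an interaction of -3.72 ± 0.53 (SE; adjusted p = 0.0145, edgeR). The interaction was -3.48 with sh10 (adjusted p = 0.0892, edgeR) and -3.97 with sh20 (adjusted p = 0.0136, edgeR), and the difference between them was -0.49 ± 0.84 (SE; adjusted p = 0.839, edgeR). The markers of endothelium and stroma summed to 13.6 to 23.2 CPM in CMPs with *Renilla* shRNA, 15.8 to 16.9 CPM with sh10 and 1.93 to 10.2 CPM with sh20, and their part in this result was not tested.

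*Chad*, for chondroadherin, a leucine-rich matrix protein, and *Prrt1*, a proline-rich membrane protein, had the largest interactions of the 8 called genes, and low counts. *Chad* (ENSMUSG00000039084.8; chromosome 11, 94565047 to 94569127, plus strand) measured 5.79, 4.63, 5.11 and 8.35 CPM in CMPs with *Renilla* shRNA, 1.68, 1.41 and 0.836 CPM with sh10 and 0 in both libraries with sh20. In LSK cells *Chad* measured 5.49, 5.83, 5.18 and 7.77 CPM with *Renilla* shRNA, 6.70, 7.08 and 2.89 CPM with sh10 and 4.14, 5.16 and 7.17 CPM with sh20. Against a floor of 3 counts per library, *Chad* was at least 11.5-fold lower in CMPs with sh20 than with *Renilla* shRNA, and with sh10 its ratio to *Renilla* was 0.22 (exact 95% interval for counting error only, 0.127 to 0.362). The fitted interaction of *Chad* was -4.88 ± 0.65 (SE; adjusted p = 0.0145, edgeR), a value that depends on how counts of 0 are handled.

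*Prrt1* (ENSMUSG00000015476.6; chromosome 17, 34629533 to 34633126, plus strand) measured 3.95, 2.44, 5.57 and 4.91 CPM in CMPs with *Renilla* shRNA, 1.26, 0.603 and 0.836 CPM with sh10 and 0 and 0.176 CPM with sh20. In LSK cells *Prrt1* measured 2.54, 1.81, 3.82 and 2.38 CPM with *Renilla* shRNA, 6.34, 6.70 and 6.14 CPM with sh10 and 3.15, 5.38 and 2.39 CPM with sh20. The knockdown and control libraries did not overlap in CMPs. In LSK cells all sh10 libraries were above all *Renilla* libraries, so both cell types entered the interaction with sh10. The interaction was -4.59 ± 0.68 (SE; adjusted p = 0.0155, edgeR).

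*Vldlr* encodes the very low density lipoprotein receptor, which takes up triglyceride-rich lipoproteins and binds reelin. It lies on chromosome 19 from 27216484 to 27254231 on the plus strand (ENSMUSG00000024924.14). In CMPs it measured 16.3, 18.5, 34.3 and 26.8 CPM with *Renilla* shRNA, 10.3, 12.9 and 9.40 CPM with sh10 and 1.02 and 1.054 CPM with sh20. In LSK cells it measured 82.2, 108, 80.2 and 99.5 CPM with *Renilla* shRNA, 114, 45.0 and 86.3 CPM with sh10 and 49.9, 74.8 and 45.8 CPM with sh20. In CMPs the order was the same in every library, with sh20 below sh10 and sh10 below *Renilla*. In LSK cells all sh20 libraries were below all *Renilla* libraries too, and the effect averaged over the hairpins was -0.44 there against -2.82 in CMPs, an interaction of -2.38 ± 0.41 (SE; adjusted p = 0.0348, edgeR).

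For the other 4 genes the CMP sh20 libraries were below every control, and the sh10 libraries overlapped the controls or were above them. *P2ry2* encodes a G protein-coupled receptor for ATP and UTP (ENSMUSG00000032860.5; chromosome 7, 100996568 to 101012866, minus strand). In CMPs *P2ry2* measured 10.5, 13.4, 9.28 and 10.6 CPM with *Renilla* shRNA, 17.9, 13.7 and 15.5 CPM with sh10 and 0.847 and 0.702 CPM with sh20. In LSK cells *P2ry2* measured 23.4, 31.3, 33.8 and 24.6 CPM with *Renilla* shRNA, 44.2, 50.9 and 35.4 CPM with sh10 and 20.7, 31.0 and 28.7 CPM with sh20. The sh10 libraries were above every control in both cell types, and the sh20 libraries were below every control in CMPs alone. The interaction of *P2ry2* was -0.10 ± 0.31 with sh10 and -3.70 ± 0.40 with sh20 (SE; adjusted p = 0.938 and 0.000840, edgeR), and -1.90 on average.

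*Aim2* encodes a cytosolic DNA sensor that assembles an inflammasome (ENSMUSG00000037860.15; chromosome 1, 173350879 to 173466040, plus strand). In CMPs *Aim2* measured 15.3, 22.4, 16.2 and 14.97 CPM with *Renilla* shRNA, 14.5, 15.3 and 16.3 CPM with sh10 and 1.86 and 0.702 CPM with sh20. In LSK cells *Aim2* measured 19.02, 25.9, 21.3 and 24.2 CPM with *Renilla* shRNA, 28.9, 15.9 and 23.1 CPM with sh10 and 19.7, 33.8 and 33.1 CPM with sh20. The sh10 and control libraries overlapped in both cell types. Its interaction was -0.17 with sh10 and -4.07 with sh20.

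*Prx* encodes periaxin, a PDZ-domain protein known from myelinating Schwann cells (ENSMUSG00000053198.13; chromosome 7, 27499324 to 27520214, plus strand). In CMPs *Prx* measured 8.16, 14.1, 18.8 and 15.2 CPM with *Renilla* shRNA, 11.4, 16.5 and 16.3 CPM with sh10 and 0.678 and 0.527 CPM with sh20. In LSK cells *Prx* measured 14.2, 18.1, 11.7 and 11.9 CPM with *Renilla* shRNA, 22.4, 20.3 and 25.5 CPM with sh10 and 11.0, 13.1 and 9.92 CPM with sh20. With sh10 the CMP libraries overlapped the controls and the LSK libraries were all above them, and the interaction was -0.64 with sh10 and -4.19 with sh20. Exons of *Prx* overlap those of *Gm15541* on the other strand, and reads of a gene and its antisense partner cannot be told apart without strand. The same limit holds for *Ccr9*, *Unc5a*, *Elf2*, *Mrpl13*, *Kmt2c*, *Rpn1* and *Cd34*, named below, whose exons also overlap those of a gene on the other strand.

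*Bambi* encodes a pseudoreceptor that dampens TGF-beta and BMP signalling (ENSMUSG00000024232.2). In CMPs *Bambi* measured 10.0, 10.2, 9.05 and 15.7 CPM with *Renilla* shRNA, 9.46, 9.64 and 10.7 CPM with sh10 and 0.847 and 0.176 CPM with sh20. In LSK cells *Bambi* measured 17.1, 25.9, 13.1 and 19.4 CPM with *Renilla* shRNA, 25.0, 32.3 and 20.1 CPM with sh10 and 22.1, 15.9 and 20.6 CPM with sh20. Only the sh20 CMP libraries stood apart. The interaction was -0.63 with sh10 and -4.43 with sh20.

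For *P2ry2*, *Aim2*, *Prx* and *Bambi* the difference between the hairpins was itself called, at -3.59, -3.90, -3.55 and -3.80 log2 units (adjusted p = 0.00100, 0.00273, 0.00775 and 0.0111, edgeR), as it was for *Chad* at -5.68 (adjusted p = 0.0355, edgeR). For *Vldlr* it was -2.83 (adjusted p = 0.0603) and for *Prrt1* -2.23 (adjusted p = 0.328, edgeR). These calls rest on 2 CMP sh20 libraries, and limma voom called no difference between the hairpins. The values for all 8 genes were negative with each hairpin, a sign partly fixed because the genes were chosen by a negative mean of both. With sh10 the values of *P2ry2* (-0.10 ± 0.31) and *Aim2* (-0.17 ± 0.39) were smaller than their SE.

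Among the 8 genes, the sh20 seed match was present in the 3′ UTR of *Aim2* alone, and the sh10 seed match in those of *Bambi* and *Vldlr*. The *Renilla* seed match was in none. Among the 69 genes called lower in the sh20 interaction that have an annotated 3′ UTR, 4 held the sh20 seed match, *Aim2*, *Fstl1*, *Maoa* and *Mpp4*, which is 5.8% beside 10.5% of all tested genes.

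**Figure D2:**
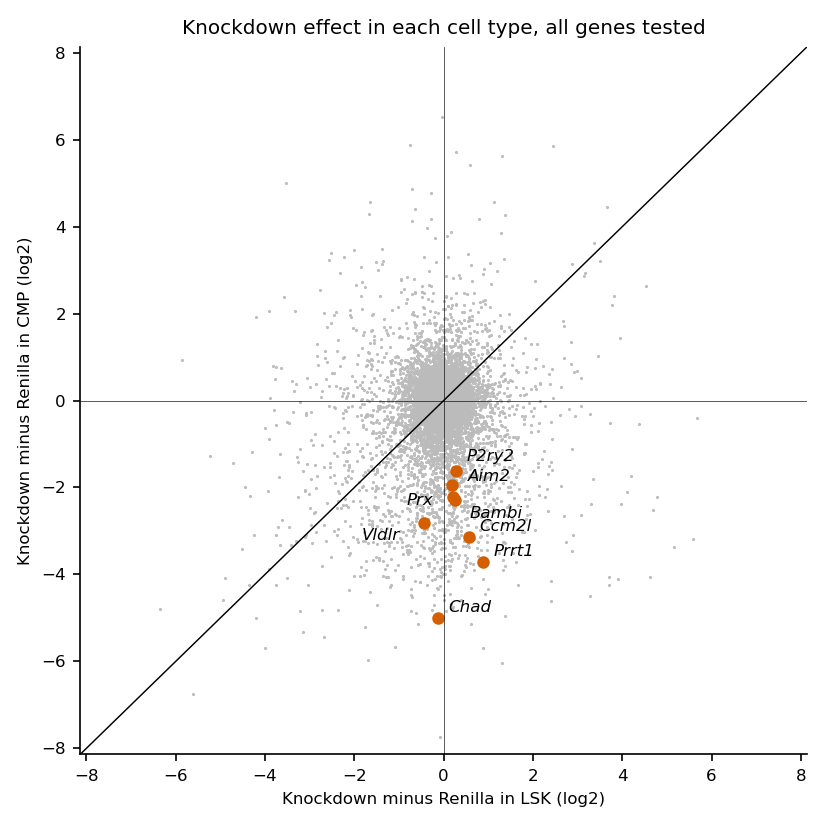
Knockdown effect of *Spehd* shRNAs against *Renilla* shRNA in LSK cells (x axis, log2) and in CMPs (y axis, log2) for the 15066 genes tested, each a grey point, with the 8 genes called in the interaction in orange and the line of equal effects drawn through the origin. The called genes lie between -0.44 and 0.87 on the x axis and between -5.01 and -1.63 on the y axis.

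The median interaction over all genes was -0.04, and -0.08 with upper quartile normalization. With each hairpin alone the number of calls differed. With sh20 72 genes were lower and 16 higher in CMPs than in LSK cells, which is 0.478% and 0.106% of the genes tested. With sh10 3 were lower and 0 higher, 0.0199% and 0%. At an unadjusted p under 0.05 (edgeR) 705 were lower and 464 higher with sh10, and 1314 and 771 with sh20. In DESeq2 sh10 gave 25 calls and sh20 296. In limma voom sh20 gave 0 calls, with at least 10 counts required in every library 3, and with log2 library totals as a covariate 18, while sh10 gave 2, 3 and 0. The difference between the hairpins was called in 31 genes as more negative with sh20, 0.206% of those tested, and in 8 as more positive, 0.0531%, and these 39 calls were 303 in DESeq2 and 0, 5 and 20 in the other 3 fits. The 2 hairpins share the *Renilla* libraries, and CMPs with sh20 are 2 libraries. Without CMP sh20 replicate C, 807 genes were called with sh20 and 806 between the hairpins, the remaining library being taken to vary as the other groups do, and without LSK *Renilla* replicate A 45 were called with sh20. Without LSK sh10 replicate B 158 were called with sh20, 0 with sh10 and 49 between the hairpins.

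Many genes were near 0 in CMPs with sh20. In a count chosen after the values above were seen, 11625 genes had at least 10 counts in every CMP *Renilla* library, and 0.671% of them had at most 5 counts in both sh20 libraries. In the 3 pairs of CMP sh10 libraries the share ran from 0.215% to 0.301%. In LSK cells, of 12087 such genes, the share was 0.24% to 0.405% in pairs of sh20 libraries and 0.0165% to 0.0248% in pairs of sh10 libraries. The sh20 libraries of both cell types also had the fewest genes detected, and the part of this in the interaction was not tested.

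The 3 genes called with sh10 were *Ccr9*, *Lck* and *Ltb*. With totals as a covariate 0 genes were called with sh10, and for 9 of the 19 libraries leaving out that library also gave 0. *Ccr9* encodes the chemokine receptor for CCL25, *Lck* the kinase that starts T cell receptor signalling, and *Ltb* lymphotoxin beta. *Ccr9* measured 17.9, 8.04, 25.1 and 9.08 CPM in CMPs with *Renilla* shRNA, 1.26, 0.201 and 0.418 CPM with sh10 and 0.339 and 0.527 CPM with sh20. In LSK cells *Ccr9* measured 0.634, 1.004, 1.36 and 0.216 CPM with *Renilla* shRNA, 7.40, 4.40 and 4.33 CPM with sh10 and 0.394, 0 and 0 CPM with sh20. It was lower with both hairpins in CMPs, and in LSK cells it was higher than every control with sh10. The sh10 interaction of *Ccr9* was -7.26 ± 1.03 (SE; adjusted p = 0.0298, edgeR), and the average interaction of -4.96 was not called (adjusted p = 0.138).

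*Lck* averaged 97.1 CPM in CMPs with *Renilla* shRNA, 20.8 CPM with sh10 and 81.3 CPM with sh20, and 45.3 CPM, 47.9 CPM and 52.6 CPM in LSK cells, with an sh10 interaction of -2.30 ± 0.37 (SE; adjusted p = 0.0425, edgeR). *Ltb* averaged 67.6 CPM, 8.02 CPM and 65.5 CPM in CMPs and 85.9 CPM, 60.6 CPM and 66.8 CPM in LSK cells, with an sh10 interaction of -2.57 ± 0.41 (SE; adjusted p = 0.0425, edgeR). *Ltb* and *Lck* in CMPs were thus low with sh10 and near the control with sh20. They moved with the T and NK cell list, which holds *Lck* and of which 9 of 10 tested markers had a negative interaction and 5 an unadjusted p under 0.05, with a median of -1.99. In bulk samples, fewer cells of a type and less RNA per cell cannot be told apart, and the part of such cells in these results was not tested. The marrow was lineage-depleted and CMPs were then sorted as Sca1- cKit+ cells. With *Renilla* shRNA the T and NK cell list summed to 338 to 598 CPM in CMPs and 60.3 to 139 CPM in LSK cells.

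**Figure D3:**
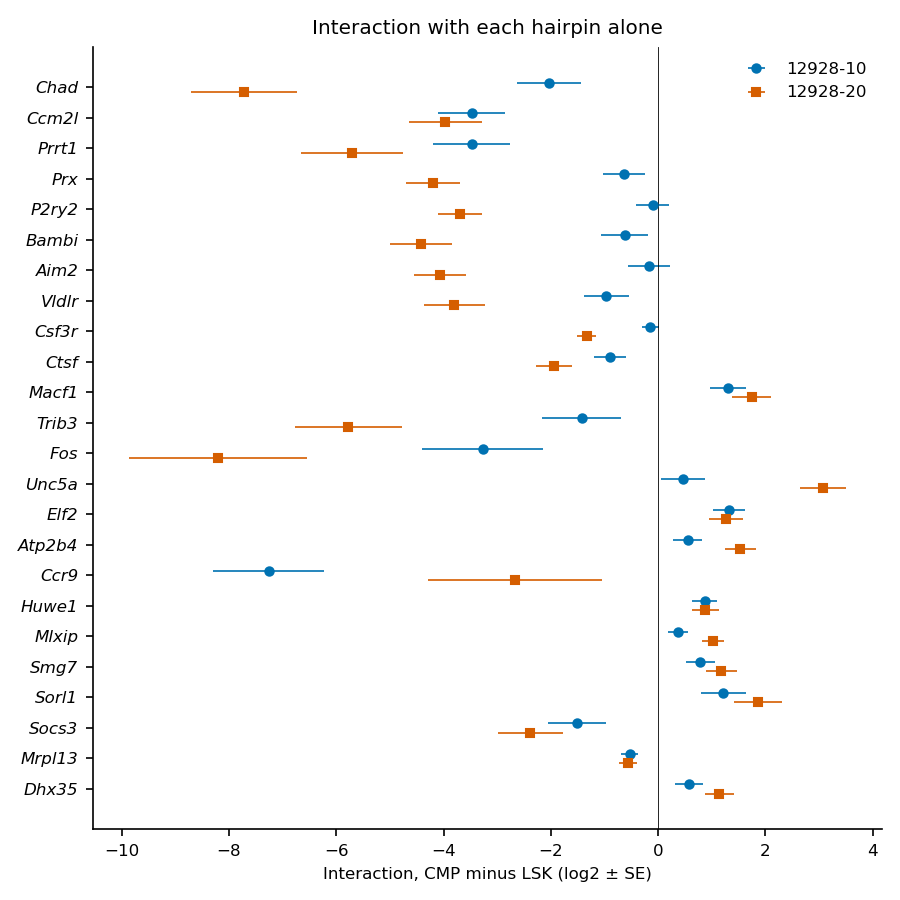
Interaction (x axis, log2, CMP minus LSK) with sh10 (blue circles, labelled 12928-10) and with sh20 (orange squares, labelled 12928-20) for the 24 named genes with the smallest p, ordered from the top; bars are SEs. *P2ry2* lies at -0.10 with sh10 and -3.70 with sh20, while *Ccm2l*, *Macf1* and *Elf2* lie close together with both.

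The genes next in order were not called. On the negative side *Csf3r*, the receptor for G-CSF, had the smallest p of these, with 62.9, 60.2, 59.4 and 67.5 CPM in CMPs with *Renilla* shRNA, 68.2, 61.9 and 68.5 CPM with sh10 and 17.8 and 23.2 CPM with sh20. In LSK cells *Csf3r* measured 209 to 221 CPM with *Renilla* shRNA, 227 to 276 CPM with sh10 and 154 to 199 CPM with sh20. The sh20 libraries were the lowest in both cell types, by a larger factor in CMPs. Its interaction was -0.74 ± 0.13 (SE; adjusted p = 0.0530 in edgeR and 0.000588 in DESeq2). With sh20 alone it was -1.34 (adjusted p = 0.00165, edgeR) and with sh10 -0.14.

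Among the positive values, the smallest p was that of *Macf1*, a large protein that links actin and microtubules. *Unc5a* and *Elf2*, an ETS-family transcription factor, followed. *Macf1* measured 69.2, 85.8, 98.4 and 58.7 CPM in CMPs with *Renilla* shRNA, 183, 104 and 129 CPM with sh10 and 168 and 143 CPM with sh20. In LSK cells *Macf1* measured 187, 134, 163 and 186 CPM with *Renilla* shRNA, 149, 106 and 107 CPM with sh10 and 120, 62.4 and 117 CPM with sh20. The CMP libraries were thus higher with knockdown without overlap, and the LSK means lower with overlap. The interaction of *Macf1* was 1.52 ± 0.29 (SE; adjusted p = 0.0637 in edgeR and 0.000524 in DESeq2). *Elf2* measured 50.2 to 68.0 CPM in CMPs with *Renilla* shRNA, 122 to 151 CPM with sh10 and 97.3 and 134 CPM with sh20, against 91.6 to 155 CPM, 75.0 to 137 CPM and 79.7 to 117 CPM in LSK cells, an interaction of 1.30 ± 0.26 (SE).

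*Unc5a*, a netrin receptor, measured 4.74, 5.60, 6.26 and 2.70 CPM in CMPs with *Renilla* shRNA, 5.68, 7.03 and 8.56 CPM with sh10 and 29.5 and 15.8 CPM with sh20. In LSK cells *Unc5a* measured 22.1 to 30.7 CPM with *Renilla* shRNA, 23.97 to 31.6 CPM with sh10 and 12.0 to 16.5 CPM with sh20. With sh20 the levels in CMPs and LSK cells overlapped, whereas with the other hairpins CMPs were below LSK cells in every library. The difference between the hairpins in its interaction was called, at 2.62 (adjusted p = 0.0173, edgeR).

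Genes of oxidative phosphorylation make ATP at the inner mitochondrial membrane and are the pathway the study followed in CMPs. No member of any of the 36 lists examined passed the threshold in the interaction in edgeR. DESeq2 called 8 members lower, *Ccr9*, *Csf3r*, *Fos*, *Gimap6*, *Lck*, *Mrpl13*, *Socs3* and *Trib3*, and 1 higher, *Dhx35*. Over all 17120 genes that DESeq2 tested, 97 were called, 72 lower and 25 higher. Lists are described by counts and medians beside those of all genes tested, of which 8151 of 15066 were negative with a median of -0.04. Of 36 subunits of complex I, the NADH dehydrogenase, 34 were negative, with a median interaction of -0.28. The median effect was -0.29 in CMPs and -0.01 in LSK cells, and the median interaction was -0.30 with sh10 and -0.28 with sh20. Of 40 genes of complexes II to IV and the ATP synthase 36 were negative, with a median of -0.23, which was -0.14 with sh10 and -0.30 with sh20. Leaving out any 1 library kept these medians between -0.32 and -0.17, and without LSK sh10 replicate B they were -0.21 and -0.18. With log2 library totals as a covariate the medians were -0.15 for complex I and -0.11 for complexes II to IV and the ATP synthase, and totals were higher with *Spehd* shRNAs in CMPs.

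The 7 tested genes encoded by the mitochondrial genome itself had a median interaction of -0.05, with -0.28 in CMPs and -0.16 in LSK cells. The median interaction turned to 0.0151 without LSK *Renilla* replicate A, with 3 of 7 negative, and was -0.131 without LSK *Renilla* replicate C. Their median effect was thus negative in both cell types. *mt-Cytb*, the mitochondrially encoded subunit of complex III, had an effect of -0.36 in CMPs and -0.21 in LSK cells and an interaction of -0.15 ± 0.11 (SE; adjusted p = 0.630, edgeR). The tricarboxylic acid cycle had 12 of 21 genes negative with a median of -0.06, and glycolysis 15 of 21 with a median of -0.12. With sh10 these medians were 0.09 and -0.02, and with sh20 -0.13 for both. The first median was -0.0205 with LSK *Renilla* replicate A left out, and the second -0.0698 when LSK sh10 replicate B was dropped.

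The mitochondrial ribosome, which translates the mitochondrially encoded subunits, had 70 of 77 genes negative with a median of -0.22. The cytosolic ribosome had 68 of 78 with a median of -0.24, and the proteasome, which degrades ubiquitin-tagged proteins, 35 of 38 with a median of -0.21, which was -0.12 with sh10 and -0.28 with sh20. Without LSK sh10 replicate B these medians were -0.155, -0.178 and -0.161, of all that leaving out 1 library gave the nearest to 0, and the part of that library in them was not tested. At an unadjusted p under 0.05 there were 12 of 77, 3 of 78 and 14 of 38 negative genes in these lists and 8 of 36 in complex I, beside 6.49% of all genes tested, so the cytosolic ribosome lay below that share. *Mrpl13*, of the large mitochondrial ribosomal subunit, measured 96.9, 108, 94.4 and 102 CPM in CMPs with *Renilla* shRNA, 86.9, 78.8 and 71.0 CPM with sh10 and 81 and 80.6 CPM with sh20, and 63.4 to 75.9 CPM, 73.3 to 91.2 CPM and 80.6 to 91.1 CPM in LSK cells. It was below the controls in all CMP knockdown libraries and its interaction was -0.55 ± 0.14 (SE; adjusted p = 0.204, edgeR).

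Chromatin regulators were the list with the highest median. Of 29 tested, 25 had a positive interaction, with a median of 0.40, 0.53 with sh10 and 0.31 with sh20. Without LSK sh10 replicate B the median was 0.256. The effect was 0.11 in CMPs and -0.22 in LSK cells at the median. At an unadjusted p under 0.05 there were 6, all positive, beside 3.58% of all genes tested that were higher. These were the histone methyltransferase genes *Kmt2c* (0.84), *Kmt2d* (0.55) and *Dot1l* (0.72), the acetyltransferase gene *Ep300* (0.92), and *Asxl1* (0.62) and *Bcor* (0.50), which act with Polycomb complexes. *Kmt2c* measured 49.0 to 75.8 CPM in CMPs with *Renilla* shRNA, 64.1 to 108 CPM with sh10 and 67.8 and 81.2 CPM with sh20, and 85.2 to 105 CPM, 48.8 to 85.1 CPM and 52.2 to 75.9 CPM in LSK cells. In LSK cells all knockdown libraries were below all controls, the closest at 85.1 CPM, and in CMPs the groups overlapped.

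The M phase list had 16 of 24 genes positive with a median of 0.13, which was 0.34 with sh10 and -0.10 with sh20, and 0.0469 without LSK sh10 replicate B and 0.214 without replicate C. Its member with the smallest p was *Mki67*, a marker of dividing cells, at 176 to 240 CPM in CMPs with *Renilla* shRNA, 276 to 437 CPM with sh10 and 283 and 291 CPM with sh20, and 231 to 368 CPM, 94.5 to 315 CPM and 167 to 292 CPM in LSK cells. All knockdown CMP libraries were above the controls, and its interaction was 1.01 ± 0.36 (SE; adjusted p = 0.401, edgeR). DNA replication genes had a median of -0.04, that of all genes tested, with 17 of 28 negative, and -0.0782 to -0.0184 with 1 library left out.

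**Figure D4:**
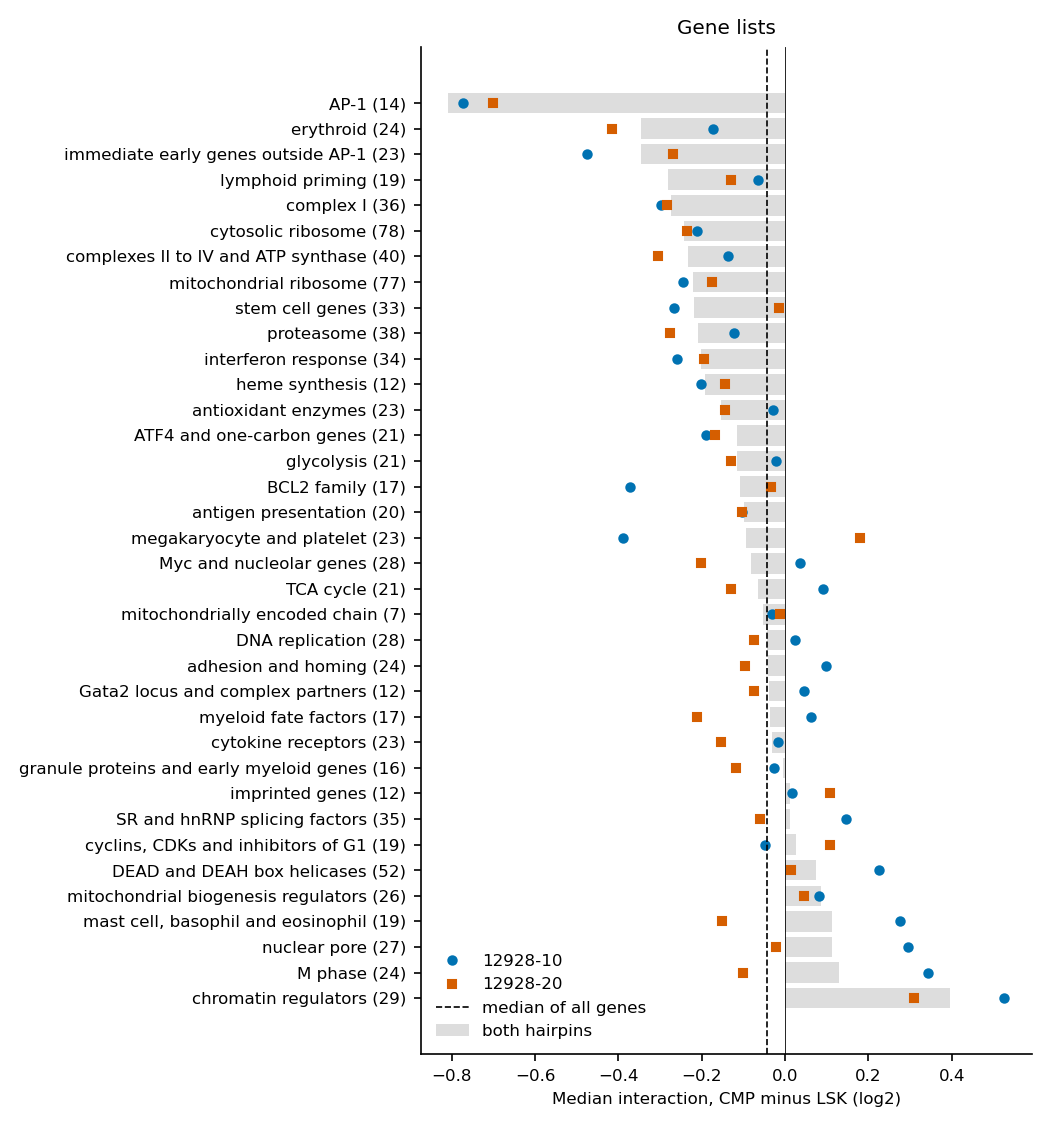
Median interaction (x axis, log2, CMP minus LSK) of each gene list (y axis, number of genes tested in parentheses) averaged over the hairpins (bars), with sh10 (circles, labelled 12928-10) and with sh20 (squares, labelled 12928-20); the dashed line is the median of all genes tested. AP-1 genes are lowest at -0.81 and chromatin regulators highest at 0.40.

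AP-1 genes encode the FOS, JUN and ATF-type proteins that pair to form an early-response transcription factor. They had the lowest median, -0.81, with 12 of 14 negative, and -0.77 with sh10 and -0.70 with sh20. Without LSK sh10 replicate B the median was -0.55. *Fos* measured 15.5, 3.65, 8.59 and 47.4 CPM in CMPs with *Renilla* shRNA, 2.94, 2.61 and 2.09 CPM with sh10 and 0 and 0.176 CPM with sh20. In LSK cells *Fos* measured 8.88, 1.81, 4.36 and 7.56 CPM with *Renilla* shRNA, 7.93, 7.46 and 7.04 CPM with sh10 and 1.38, 10.5 and 18 CPM with sh20. The knockdown CMP libraries were below the controls, which themselves ran from 3.65 to 47.4 CPM. The interaction of *Fos* was -5.74 ± 1.14 (SE; adjusted p = 0.0738 in edgeR and 0.000824 in DESeq2).

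*Jun* had an interaction of -1.35, *Junb* of -0.61 and *Jund* of -0.54, each with an unadjusted p under 0.05. *Junos*, the antisense partner of *Jun*, had -1.25, and reads of the pair cannot be told apart without strand. Immediate early genes outside AP-1 had 20 of 23 negative with a median of -0.34, which was -0.48 with sh10, -0.27 with sh20 and -0.26 without LSK sh10 replicate B. Among them were *Socs3*, an inhibitor of cytokine signalling through JAK kinases (-1.95), *Nr4a1*, an orphan nuclear receptor (-1.46), and *Dusp1*, a MAP kinase phosphatase (-1.22). *Trib3*, a target of the ATF4 stress factor, measured 1.58, 2.92, 3.48 and 10.6 CPM in CMPs with *Renilla* shRNA, 2.31, 1.41 and 0.627 CPM with sh10 and 0.170 and 0.176 CPM with sh20, and 9.27 to 16.0 CPM, 7.40 to 15.1 CPM and 23.9 to 35.6 CPM in LSK cells. With sh20 it was thus below every control in CMPs and above every control in LSK cells, with an interaction of -3.60 ± 0.71 (SE; adjusted p = 0.0738, edgeR).

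Among lineage lists, the erythroid list had 18 of 24 genes negative with a median of -0.35, -0.13 in CMPs and 0.33 in LSK cells, and -0.17 with sh10 and -0.42 with sh20. Its median was -0.543 without LSK *Renilla* replicate B, -0.179 without LSK sh20 replicate B and -0.221 without LSK sh10 replicate B. *Gata1*, the erythroid and megakaryocyte transcription factor, had an interaction of -0.56 and the globin gene *Hbb-bs* one of -3.31, while *Tal1*, a partner of GATA factors, had 0.46, each with an unadjusted p under 0.05. Red cell markers summed to 535 to 944 CPM in CMPs and 12.5 to 161 CPM in LSK cells, and 8 of 9 had a negative interaction with a median of -1.51. Their part in the erythroid values was not tested. With library totals as a covariate the median of the erythroid list was -0.08.

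The lymphoid priming list had 11 of 19 genes negative with a median of -0.28, from -4.96 for *Ccr9* to 2.07 for *Blnk*, an adaptor of B cell receptor signalling, and the median was -0.06 with sh10, -0.13 with sh20 and -0.174 without CMP *Renilla* replicate D. The B cell markers summed to 29.5 to 67.2 CPM in CMPs with *Renilla* shRNA and to 72.9 to 292 CPM with sh20, with *Ms4a1* and *Pax5* at 0 there. Granule proteins and early myeloid genes had 9 of 16 negative with a median of -0.01, and myeloid fate factors 9 of 17 with a median of -0.04. With 1 library left out these medians ran from -0.164 to 0.169 and from -0.298 to 0.0639, so neither had a stable sign. The fate factors were at 0.06 with sh10 and -0.21 with sh20. The mature neutrophil markers ran from 7.18 to 361 CPM within the LSK *Renilla* libraries alone. Stem cell genes had 24 of 33 negative with a median of -0.22, which was -0.27 with sh10 and -0.01 with sh20. Megakaryocyte and platelet genes had 14 of 23 negative with a median of -0.09, which was -0.39 with sh10, 0.18 with sh20 and 0.176 without CMP *Renilla* replicate C, with 9 negative genes.

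*Spehd* lies beside *Gata2*, which encodes a transcription factor required by hematopoietic stem cells. *Gata2* measured 557, 515, 545 and 566 CPM in CMPs with *Renilla* shRNA, 417, 421 and 492 CPM with sh10 and 482 and 456 CPM with sh20. In LSK cells *Gata2* measured 483, 453, 519 and 506 CPM with *Renilla* shRNA, 418, 457 and 393 CPM with sh10 and 424, 590 and 496 CPM with sh20. All knockdown CMP libraries were below the controls and the LSK groups overlapped. The effect was -0.26 ± 0.08 in CMPs and -0.09 ± 0.08 in LSK cells (SE), neither called, and the interaction of *Gata2* was -0.17 ± 0.11 (SE; adjusted p = 0.597, edgeR). *Rpn1*, the neighbour on the other side, which encodes a subunit of the oligosaccharyltransferase, had an effect of -0.23 in CMPs (adjusted p = 0.0416, edgeR) and -0.05 in LSK cells, with an interaction of -0.18 ± 0.08 (SE; adjusted p = 0.473, edgeR). The lincRNA *Gm38708* at the same locus had 0 to 22 counts in a library and an interaction of -0.94 ± 1.29 (SE).

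The precision of the interaction followed the counts. The median SE was 1.25 log2 units for genes with a mean under 20 counts, 0.402 from 50 to 200 counts and 0.122 over 1000 counts. Among the called genes, 5 had a mean of 50 to 200 counts and none was over 1000. Differences of the size seen in the respiratory chain are thus close to the SE of its single genes.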

How the data were processed

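RNA-seq was made from sorted CMPs and LSK cells with a SMART-Seq v4 kit, which does not mark strand. Alignment to mm10 was done by the authors with STAR, duplicates were dropped with Picard and reads were assigned to GENCODE genes with HTSeq, 1 library to a file. The values, as deposited by the authors, are whole counts per gene without normalization, in 19 files of 54352 genes. The 5 summary rows that name no gene were left out: 26.4% to 32.2% of the reads listed in a file lay on no feature. A deposited table of counts divided by size factors was not used.

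Genes were tested with edgeR 4.0.16 (quasi-likelihood, TMM, filterByExpr with a minimum count of 10 and total of 15) in 1 fit of all 6 groups, with Benjamini-Hochberg adjustment at 0.05. The common biological coefficient of variation was 0.302 with 13 residual degrees of freedom. Log2 values of CPM used a prior count of 2. Totals ran from 3647318 to 5965155 counts, and intervals and floors cover counting error only. DESeq2 1.42.0 and limma 3.58.1 voom were alternatives, with other scalings, filters, pooled hairpins, replicate letters, library totals as a covariate and each library left out. Fits with the libraries of 1 *Spehd* hairpin were added after seeing the data. The test was checked on simulated data. Named genes were those called, the 8 smallest p per direction with a mean of at least 50 counts, the smallest p of each of 36 lists, and the *Spehd* neighbours. A gene this rule names is not reported here. *Lck*, *Ltb*, marker genes and other list members with an unadjusted p under 0.05 were named after their values were seen. The comparison and lists were chosen with earlier results of these data known. Coordinates and 3′ UTRs are from GENCODE vM21 (GRCm38). R 4.3.3 and Python 3.11.15 were used.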

Additional observations from a re-analysis of the deposited data

Results flagged for a closer look

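The knockdown effect differed between CMPs and LSK cells in the test of the difference for *Chad* (-4.88), *Ccm2l* (-3.72), *Prrt1* (-4.59), *Prx* (-2.41), *P2ry2* (-1.90), *Bambi* (-2.53), *Aim2* (-2.12) and *Vldlr* (-2.38), all on the log2 scale. The interaction differed between sh20 and sh10 for *Chad* (-5.68), *Prx* (-3.55), *P2ry2* (-3.59), *Bambi* (-3.80), *Aim2* (-3.90), *Csf3r* (-1.19) and *Unc5a* (2.62). In 3 of 116 groups of 4 libraries 1 library stood apart from the other 3, all in LSK *Renilla*. These were log2 CPM values of *Ccm2l* in replicate B, at 5.34 against 4.09 to 4.30, of *Mrpl13* in replicate A, at 6.00 against 6.22 to 6.25, and of *Rpn1* in replicate C, at 8.70 against 8.51 to 8.53. Chance alone flags about 1 in 20 such groups.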

How the results depend on the processing

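Genes called lower in the interaction numbered 123 and higher 130 with no filter, 0 and 0 with at least 10 counts in every library, 72 and 25 in DESeq2, 0 and 0 in limma voom, 1 and 0 with the hairpins pooled, 3 and 0 with sh10 and *Renilla* libraries only, and 24 and 10 with sh20 and *Renilla* libraries only. With the replicate letter as a block 0 were called lower, and 0 with the letter within hairpin as the block. Calls with sh10 alone, 3 in the main comparison, were 153 with no filter, 25 in DESeq2 and 0 with totals as a covariate. Calls with sh20 alone, 88 in the main comparison, were 474 with no filter, 3 with at least 10 counts in every library, 296 in DESeq2, 0 in limma voom and 18 with totals as a covariate. Calls between the hairpins, 39 in the main comparison, were 515, 5, 303, 0 and 20 in the same order. The replicate block by letter gave 1, 53 and 12 calls for sh10, sh20 and their difference, and the replicate block by letter within hairpin 0, 8 and 6. The causes were not tested.

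Leaving out 1 library gave 0 to 243 lower and 0 to 20 higher genes, 0 to 6 with sh10, 45 to 807 with sh20 and 20 to 806 between the hairpins, and a difference of log2 totals of 0.111 to 0.259. Without CMP sh10 replicate B 20 were called between the hairpins. Calls with sh10 fell to 0 without 9 of the 19 libraries, among them CMP sh10 replicates B and C. Over 30 alternatives *Ccm2l* and *Chad* were called in 24, *Prrt1* and *Prx* in 22, *P2ry2* in 21, *Bambi* and *Vldlr* in 15 and *Aim2* in 12, and none of the 8 changed sign. *Cd34* alone of the named genes changed sign, to 0.0835 with sh10 and *Renilla* libraries only.

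The letters are not stated to pair libraries. Deviations from group means correlated at 0.00306 to 0.259 (median 0.0435) in the 9 pairs of CMP and LSK libraries with the same hairpin and letter, 3 of them over 0.1, and at -0.214 to 0.131 in 22 pairs with other letters. The CMP library correlated best with its own letter in 6 of 9 cases.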
